A study of Mus musculus with 14 samples.

Results

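The genes described here are 9 genes that B lymphocytes use to become and remain B cells, and they were followed in whole liver from a mouse model of autoimmune hepatitis (AIH, an immune attack on the liver). They are Cd79a and Cd79b, Cd22 and Blk, Ms4a1, Cr2 and Fcer2a, and Pax5 and Ebf1. They were taken by name, as established genes of the B lineage, out of 51912 genes counted in each library. Positions given with each gene are its span in GRCm38 (GENCODE M21). All 9 of the 9 were found in the annotation, and all 9 passed the filter on low counts that left 14638 genes for testing. Total RNA of left lobe tissue was sequenced from 14 untreated mice aged 20 weeks, 1 library each. In all 3 groups both copies of Tet2, the gene for an enzyme that oxidises methylated cytosine in DNA, were floxed (Tet2fl/fl). The AIH group (5 livers) was Tet2fl/fl vav cre+ and had developed autoimmune hepatitis spontaneously. The asymptomatic group (5 livers) had the same genotype, Tet2fl/fl vav cre+, without symptoms. The control group (4 livers) was Tet2fl/fl cre-, healthy littermates whose Tet2 stayed whole. The Vav promoter drives cre in blood-forming cells and their descendants, B cells among them, so by design the B cells of cre+ mice lack Tet2 themselves while hepatocytes keep it. AIH and asymptomatic mice share a genotype and differ by their disease state, and most also by sex as read from the counts (below).

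B cells recognise antigen through a membrane immunoglobulin that signals only in complex with CD79A and CD79B. The transcription factors EBF1 and PAX5 start and then hold the B cell programme, and PAX5 is silenced when a B cell becomes an antibody-secreting plasma cell. Healthy liver holds few B cells, mostly passing through with the blood, whereas lymphocytes gather around the portal tracts in autoimmune hepatitis. In bulk tissue, more cells of a type and more RNA per cell cannot be told apart, and this holds for every level given here.

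Promoter windows from RefSeq (build GRCm38.p6, up to 250 bases before the start of transcription) were on hand for 6 of the 9 genes, and for 5 of them bases were left to search once exons were trimmed off, Cd22 having none. Cd79b, Ms4a1 and Blk are named only. The windows of 3 genes are shown because the genes separate in the AIH livers: Cd79a was higher in every AIH liver than in every other liver, whereas Cr2 and Fcer2a were high mainly in 1 of them. The windows are given 5′ to 3′ on the strand of the gene and end before the first annotated exon base: Cd79a at chr7:24897247-24897380 (plus strand), Cr2 at chr1:195176720-195176969 (minus strand) and Fcer2a at chr8:3694176-3694424 (minus strand, the outermost of its 3 windows). Capitals mark E boxes, CANNTG, the motif bound by E proteins such as the product of Tcf3, which act with EBF1 early in the B lineage.
Cd79a: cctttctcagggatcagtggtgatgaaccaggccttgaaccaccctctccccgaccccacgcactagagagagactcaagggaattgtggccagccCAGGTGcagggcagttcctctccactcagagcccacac
Cr2: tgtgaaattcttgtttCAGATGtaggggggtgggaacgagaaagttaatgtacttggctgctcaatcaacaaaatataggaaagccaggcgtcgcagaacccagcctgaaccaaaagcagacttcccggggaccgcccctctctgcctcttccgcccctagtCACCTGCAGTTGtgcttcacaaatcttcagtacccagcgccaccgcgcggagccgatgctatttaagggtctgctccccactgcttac
Fcer2a: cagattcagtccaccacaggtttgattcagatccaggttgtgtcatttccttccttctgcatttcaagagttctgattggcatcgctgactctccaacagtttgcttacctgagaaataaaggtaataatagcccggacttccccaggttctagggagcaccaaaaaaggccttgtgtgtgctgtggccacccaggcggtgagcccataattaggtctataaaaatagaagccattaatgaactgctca
The Cd79a window held 1 E box, CAGGTG. The pattern CANNTG is the same on both strands, so each match counts once. The Cr2 window held 3, of which CACCTG and CAGTTG lie side by side, and the outermost Fcer2a window held none, while a window further inside that gene held 4. Of 32851 promoter windows trimmed to 134, 250 and 249 bases, 45.4%, 66.2% and 66.1% held at least 1 E box, so its presence is common. An octamer, ATTTGCAT, and a single strict form of a pair of early B cell factor half-sites were searched on both strands. Neither was found in the 7 windows searched, which belong to Cd79a, Cr2, Fcer2a, Pax5 and Ebf1. The octamer and this strict pair occur in 1.60% and 0.779% of all 250-base windows. Sites that differ from the strict pair by any fixed letter were not searched. Its absence therefore does not show that a window, that of Cd79a included, lacks a site for EBF1. These matches describe the letters only.

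Libraries held 15968380 to 18915729 counts assigned to genes. Levels below are CPM, counts relative to the library total scaled by the trimmed mean of M-values (TMM). The share of reads that did not align was 3.23% to 6.54% in AIH, 4.93% to 9.27% in asymptomatic and 4.17% to 4.89% in control libraries. The labels give no sex. Counts of Xist and Y-linked genes placed 4 AIH livers as female and 1 (AIH 4) as male, all 5 asymptomatic livers as male, and 2 control livers as female and 2 as male. Sex and disease state are thus unevenly spread, and values within each sex are given beside the genes named where a call is lost. With all asymptomatic livers male, AIH cannot be compared with asymptomatic livers within females. In that comparison sex and disease state cannot be fully told apart. Values within males set 1 AIH liver, AIH 4, against the other males. Their p-values assume that it varies like the libraries of the other groups, and they do not test a change in males. Tet2, the floxed gene, was at 7.34 to 15.4 CPM in AIH, 4.77 to 9.23 CPM in asymptomatic and 8.53 to 11.98 CPM in control livers and was not called in any comparison. A count over the whole gene in whole liver, where most cells keep it, does not check the labels. The hepatocyte genes Alb, Apoa1 and Ttr were abundant in every library, Alb at 68210 to 136300 CPM, as the label liver calls for.

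In AIH livers 7 of the 9 B cell genes rose against controls, and 7 of the 9 rose against asymptomatic livers (edgeR quasi-likelihood F-test, Benjamini-Hochberg adjusted over 14638 genes, threshold 0.05). None of the 9 fell. Over all genes tested, 15.6% (2284) were called higher in AIH against control and 19.1% (2796) in AIH against asymptomatic. Those called lower numbered 890 and 1559. Scaling by library totals, which moved the median of all genes by 0.14 and 0.17 on the log2 scale, gave 2675 higher and 304 lower against control, and 3533 higher and 442 lower against asymptomatic livers. It called the same number of the 9 genes. For 6 of the 9 every AIH liver lay above every control liver, which was true of 13.2% of all genes. For 3, Cd79a, Cd79b and Cd22, every AIH liver also lay above every asymptomatic liver, which was true of 12.3% of all genes. The median log2 fold change of the 9 genes was 4.12 in AIH against control and 2.94 in AIH against asymptomatic, against -0.01 and -0.03 over all genes tested. Both comparisons use the same AIH libraries. In AIH against asymptomatic, 4355 genes were called in either direction, 1372 with sex as a term and 562 with the share of unaligned reads as a term. Of the 9 genes, 9 and 5 were called with these terms. In the main fit, without such terms, the 2 genes not called were Cr2 and Fcer2a in both AIH comparisons.

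**Figure D1:**
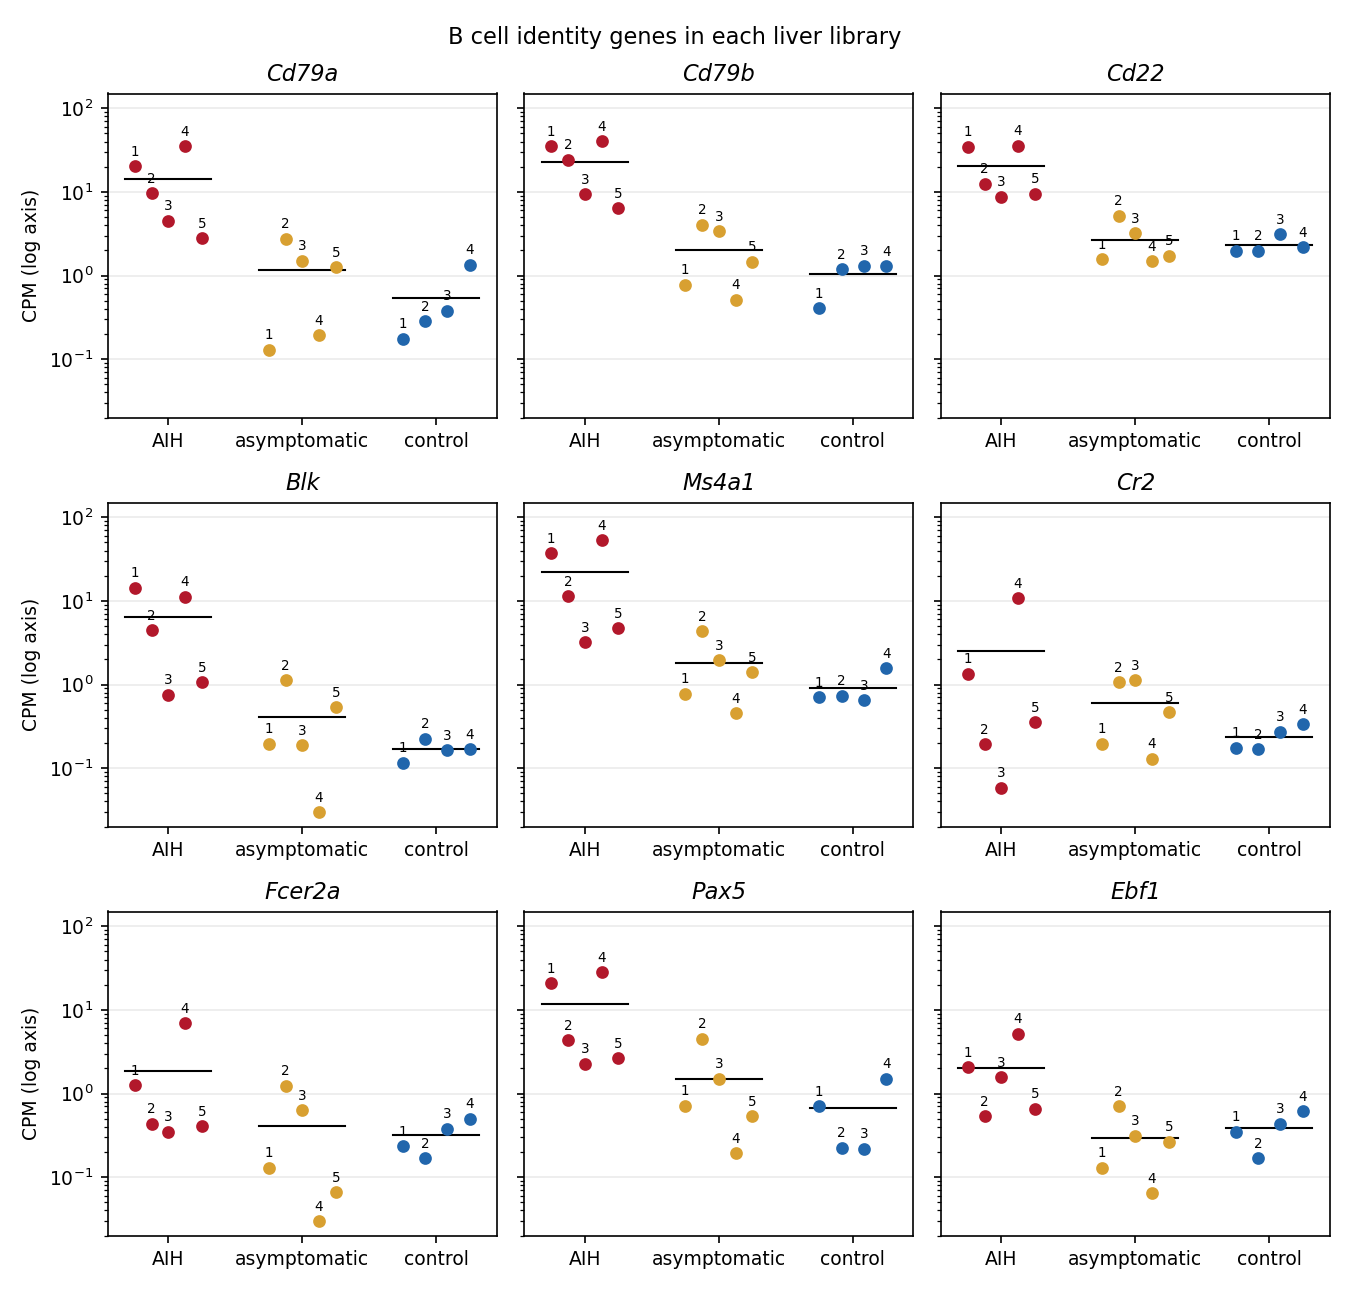
Level of each of the 9 B cell genes in every liver, as TMM-scaled CPM on a log axis, with 1 point per library and the mean of each group as a bar. Libraries with 0 counts (Fcer2a and Blk in asymptomatic 4) are drawn at 0.03. AIH livers 1 and 4 are the 2 highest points of their group in all 9 panels.

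The signalling chains of the B cell receptor separated AIH livers from both other groups. Cd79b (chr11:106311341-106314762, minus strand), whose protein pairs with CD79A and carries the signal of bound antigen into the cell, had 35.0, 24.2, 9.32, 40.5 and 6.36 CPM in AIH livers 1 to 5. It had 0.780, 4.06, 3.39, 0.517 and 1.46 CPM in asymptomatic livers 1 to 5 and 0.409, 1.19, 1.31 and 1.28 CPM in control livers 1 to 4. The lowest AIH liver, AIH 5, lay above the highest liver of either other group. Cd79b averaged 23.1 ± 15.1 CPM in AIH (SD, n = 5), 2.04 ± 1.59 CPM in asymptomatic (n = 5) and 1.05 ± 0.429 CPM in control livers (n = 4). Its log2 fold change was 4.45 ± 0.72 (SE; adjusted p = 0.00059, edgeR) in AIH against control, and 3.49 ± 0.62 (adjusted p = 0.000831) in AIH against asymptomatic. Cd79a (chr7:24897381-24902197, plus strand), the partner chain, had 20.3, 9.67, 4.55, 34.9 and 2.78 CPM in AIH livers. It had 0.130, 2.77, 1.51, 0.194 and 1.26 CPM in asymptomatic livers and 0.175, 0.283, 0.381 and 1.34 CPM in control livers. Here too AIH did not overlap the other groups, though AIH 5 lay only just above asymptomatic 2. The log2 fold change of Cd79a was 4.71 ± 0.97 (adjusted p = 0.00324, edgeR) in AIH against control and 3.61 ± 0.82 (adjusted p = 0.00458) in AIH against asymptomatic. Within females, 4 AIH against 2 control livers, the log2 fold change was 3.90 for Cd79b (adjusted p = 0.0187) and 4.78 for Cd79a (adjusted p = 0.0285, edgeR). AIH 4 alone lay above the 2 male controls by 5.56 for Cd79b and 5.50 for Cd79a. Scaled by exon length, Cd79b was the most abundant of the 9 genes in each of the 5 AIH livers, at 4.45 to 28.3 CPM per kilobase of exon.

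Cd22 and Blk modulate that receptor. Cd22 (chr7:30865402-30880342, minus strand), a lectin that binds sialic acid and damps receptor signalling, had 34.5, 12.5, 8.74, 35.6 and 9.49 CPM in AIH livers. It had 1.56, 5.18, 3.20, 1.49 and 1.73 CPM in asymptomatic livers and 1.99, 1.98, 3.10 and 2.18 CPM in control livers. AIH overlapped neither other group. It rose by 3.12 ± 0.53 on the log2 scale in AIH against control (SE; adjusted p = 0.000837, edgeR) and by 2.93 ± 0.48 in AIH against asymptomatic (adjusted p = 0.000454). Blk (chr14:63372836-63417037, minus strand), a Src-family kinase that acts just below the receptor, had 14.3, 4.47, 0.758, 11.2 and 1.06 CPM in AIH livers. It had 0.195, 1.118, 0.188, 0 and 0.532 CPM in asymptomatic livers and 0.117, 0.226, 0.163 and 0.168 CPM in control livers, where it rested on 2 to 4 counts each. AIH livers 1 and 4 stood far above the rest, AIH 3 and AIH 5 lay between controls and asymptomatic 2, and AIH overlapped asymptomatic but not control livers. With 12 Blk counts in all controls, the log2 fold change of 5.18 ± 1.05 (adjusted p = 0.0029, edgeR) is the largest of the 9 and rests on very few control counts. Summed over libraries, 624 counts in AIH against 12 in control gave a ratio of 38.4 (95% interval 21.8 to 74.7, counting error only). Against asymptomatic livers Blk rose by 3.93 ± 0.87 (adjusted p = 0.00382), a call lost with the share of unaligned reads as a term (adjusted p = 0.0677). Against controls the call was lost within females (log2 fold change 4.68, adjusted p = 0.0513) and within males (6.22, adjusted p = 0.0722).

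Of the 3 surface proteins of mature B cells, 1 followed the receptor chains and the others did not. Ms4a1 (chr19:11249675-11266241, minus strand), which encodes CD20, the target of B cell depleting antibodies, had 37.4, 11.3, 3.21, 53.5 and 4.75 CPM in AIH livers. It had 0.780, 4.35, 1.95, 0.452 and 1.40 CPM in asymptomatic livers and 0.701, 0.735, 0.654 and 1.56 CPM in control livers. All AIH livers lay above all controls, while AIH 3 fell below asymptomatic 2. Ms4a1 rose by 4.58 ± 0.91 on the log2 scale against control (adjusted p = 0.00243, edgeR) and by 3.61 ± 0.78 against asymptomatic livers (adjusted p = 0.00315). Cr2 (chr1:195136811-195176716, minus strand), complement receptor 2, is a coreceptor of B cells that is strong on marginal zone and follicular B cells and is also made by follicular dendritic cells. It had 1.34, 0.194, 0.0583, 10.7 and 0.353 CPM in AIH livers, 0.195, 1.06, 1.13, 0.129 and 0.466 CPM in asymptomatic livers and 0.175, 0.170, 0.272 and 0.335 CPM in control livers. A single liver, AIH 4, held 192 of the 232 Cr2 counts in the AIH group, and AIH 3, with 1 count, was the lowest of all 14 livers. Fcer2a (chr8:3681737-3694175, minus strand), the low-affinity IgE receptor CD23 of follicular B cells, had 1.25, 0.437, 0.350, 6.94 and 0.404 CPM in AIH livers. It had 0.130, 1.24, 0.627, 0 and 0.0665 CPM in asymptomatic livers and 0.234, 0.170, 0.381 and 0.503 CPM in control livers. Again AIH 4 stood apart, with 124 of 173 AIH counts, and the 3 lowest AIH livers lay within the control range. The log2 fold change in AIH against control was 3.37 ± 1.23 for Cr2 (adjusted p = 0.0653, edgeR) and 2.51 ± 1.07 for Fcer2a (adjusted p = 0.111). Against asymptomatic livers it was 2.06 ± 1.03 for Cr2 (adjusted p = 0.146) and 2.14 ± 0.96 for Fcer2a (adjusted p = 0.108). AIH 4 is also the only male AIH liver. Within females the log2 fold change against control was 1.14 for Cr2 (adjusted p = 0.55) and 1.13 for Fcer2a (adjusted p = 0.561). AIH 4 lay above the 2 male controls by 5.35 for Cr2 and 4.21 for Fcer2a, and sex and this single liver cannot be told apart. Neither gene passed the filter on low counts without AIH 1, AIH 4, asymptomatic 2 or asymptomatic 3. Cr2 was called in AIH against control without AIH 2, AIH 3 or AIH 5 (3.65 to 3.67, adjusted p = 0.0378 to 0.049, edgeR) and with sex as a term (3.15, adjusted p = 0.0481). Against asymptomatic livers both were called with sex as a term, Cr2 at 3.25 (adjusted p = 0.0344) and Fcer2a at 3.24 (adjusted p = 0.0378), and limma-voom called Fcer2a at 3.26 (adjusted p = 0.0148). DESeq2 called both genes in AIH against control, Cr2 at 3.39 (adjusted p = 0.00835) and Fcer2a at 2.52 (adjusted p = 0.0493).

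Both transcription factors rose. Pax5 (chr4:44524757-44710487, minus strand), which commits cells to the B lineage, had 20.98, 4.37, 2.27, 28.0 and 2.63 CPM in AIH livers. It had 0.715, 4.53, 1.51, 0.194 and 0.532 CPM in asymptomatic livers and 0.701, 0.226, 0.218 and 1.51 CPM in control livers. AIH lay above control throughout, but 3 of 5 AIH livers were below asymptomatic 2. Pax5 rose by 4.12 ± 1.04 on the log2 scale in AIH against control (adjusted p = 0.0109, edgeR) and by 2.94 ± 0.88 against asymptomatic livers (adjusted p = 0.021). The second call was lost without AIH 4 (2.33, adjusted p = 0.0522), without asymptomatic 1 (2.77, adjusted p = 0.0541), without asymptomatic 5 (2.73, adjusted p = 0.052) and with the share of unaligned reads as a term (2.85, adjusted p = 0.157). The call against controls was lost within males (4.65, adjusted p = 0.12). Ebf1 (chr11:44617317-45008091, plus strand), which acts before Pax5 in B cell development and is also made by stromal cells such as pericytes, had 2.06, 0.535, 1.57, 5.20 and 0.656 CPM in AIH livers. It had 0.130, 0.706, 0.314, 0.0646 and 0.266 CPM in asymptomatic livers and 0.351, 0.170, 0.436 and 0.615 CPM in control livers. The lowest AIH liver, AIH 2, lay below control 4 and below asymptomatic 2, so the groups overlapped. Ebf1 rose by 2.33 ± 0.71 in AIH against control (adjusted p = 0.0294, edgeR) and by 2.71 ± 0.68 against asymptomatic livers (adjusted p = 0.00819). Against control this was the smallest fold change of the 9. The call was lost without AIH 4 (1.60, adjusted p = 0.0707), without control 1, 2 or 3 (2.05 to 2.37, adjusted p = 0.0592 to 0.0851), within females (1.96, adjusted p = 0.137) and within males (3.41, adjusted p = 0.0776). Of 11 stellate cell, pericyte and fibroblast genes listed, 4 rose in AIH against control, none fell and 7 were not called, Reln (-0.37) and Ecm1 (-0.29) among them. Those that rose were Col1a1 by 2.88 ± 0.50 (adjusted p = 0.001), Lum by 1.69 ± 0.36 (adjusted p = 0.00439), Rgs5 by 1.38 ± 0.32 (adjusted p = 0.00613) and Des. Within males Col1a1 was at 2.75 (adjusted p = 0.115), Lum at 0.64 (adjusted p = 0.801) and Rgs5 at 0.051 (adjusted p = 0.979). The summed level of that list was 695.6 to 1266 CPM in AIH, 362.7 to 752 CPM in asymptomatic and 498.8 to 763.2 CPM in control livers. Within AIH it was lowest in AIH 4, the liver with the highest Ebf1, and its part in the Ebf1 result was not tested.

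**Figure D2:**
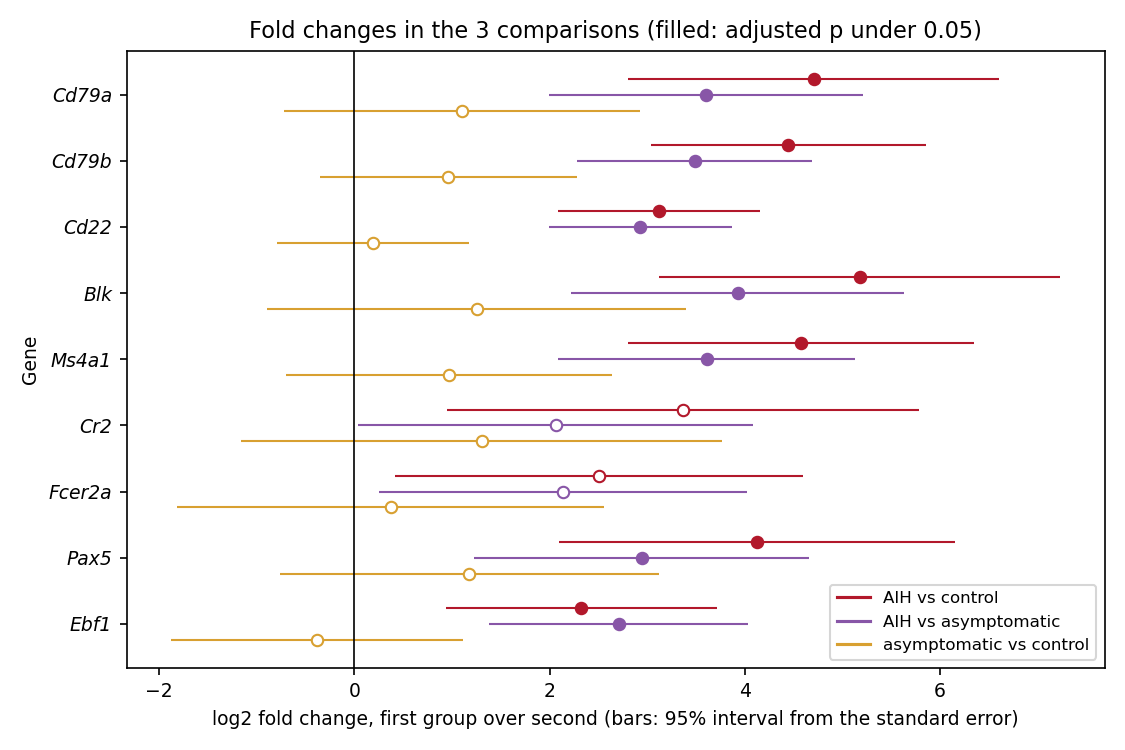
Log2 fold change of each gene in the 3 comparisons, from the edgeR fit over 14 libraries, with lines for the 95% interval from the standard error. Filled points passed the threshold of 0.05 after adjustment and open points did not: 7 of 9 genes are filled in both AIH comparisons and 0 of 9 in asymptomatic against control.

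Asymptomatic livers, which share the genotype of the AIH livers, were not called different from controls for any of the 9 genes. No member had an unadjusted p under 0.05 in edgeR, and DESeq2 and limma-voom called none either. Over all genes the share called was 0% with edgeR, with 1542 genes (10.5%) at an unadjusted p under 0.05, 109 called by DESeq2 and 1299 by limma-voom. The fold changes were not close to 0 throughout. Of the 9 point estimates 8 were above 0, from 0.19 ± 0.50 for Cd22 to 1.30 ± 1.26 for Cr2, and Ebf1 was at -0.38 ± 0.76 (SE, log2 scale, adjusted p = 0.625 to 0.93). The 95% interval for Cd79b ran from -0.36 to 2.28, so a rise within that interval could not be told from none at this depth and number of mice. The signs for Cd79a, Cr2, Fcer2a, Cd22 and Blk turned under at least 1 other setting. A single mouse drew the group mean up: asymptomatic 2 was the highest asymptomatic liver for 8 of 9 genes, with 77 of the 123 Pax5 counts and 69 of the 165 Cd79b counts of its group. Its immunoglobulin chains summed to 329.6 CPM, against 10.2 to 33.9 CPM in the other asymptomatic livers and 28.7 to 62.5 CPM in controls. It also had the lowest share of unaligned reads of its group (4.93%, against 7.80% to 9.27% in the others), and the part of this in its values was not tested. Among controls, control 4 was highest for 6 of the 9 genes.

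Within the AIH group the 9 genes ranked the livers alike. AIH 1 and AIH 4 were the 2 highest livers for 9 of 9 genes, and the lowest was AIH 3 for 6 genes, AIH 5 for 2 and AIH 2 for 1, Ebf1. Summed over the 9 genes, AIH livers 1 to 5 had 167.2, 67.7, 30.8, 226.7 and 28.5 CPM. The asymptomatic livers had 4.62, 25, 13.8, 3.04 and 7.72 CPM, and the control livers 4.85, 5.14, 6.92 and 9.50 CPM. The highest AIH liver thus held several times the B cell gene sum of the lowest, and the lowest AIH liver was close to asymptomatic 2. AIH 1 and AIH 4 had near-equal Cd79b, at 730 and 723 counts, yet differed in other genes. Relative to AIH 1, AIH 4 had 1.15 times the CPM of Cd79b (95% interval 1.04 to 1.28, counting error only), 1.03 times that of Cd22 (0.928 to 1.15) and 0.782 times that of Blk (0.65 to 0.939). It had 7.99 times the CPM of Cr2 (5.35 to 12.3), 5.56 times that of Fcer2a (3.62 to 8.84) and 2.52 times that of Ebf1 (1.74 to 3.71). These are 2 single livers, and the intervals say nothing of the spread between mice.

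Set against Cd79b in the same library, Cr2 and Fcer2a separated AIH 4 from the other AIH livers. Cr2 made up 3.69% (exact 95% interval 2.47 to 5.30), 0.798% (0.218 to 2.03), 0.621% (0.0157 to 3.41), 20.98% (18.4 to 23.8) and 5.26% (2.14 to 10.5) of Cr2 plus Cd79b counts in AIH livers 1 to 5. The same share was 20% to 25% in the 5 asymptomatic livers and 12.5% to 30% in the 4 controls, most of them from fewer than 10 Cr2 counts. AIH 4 lay within the range of both other groups, and the other 4 AIH livers lay below all of them. Fcer2a counts per Cd79b count ran from 0.0181 to 0.172 in AIH, 0 to 0.304 in asymptomatic and 0.143 to 0.571 in control livers. Ebf1 counts per Cd79b count ran from 0.0221 to 0.169 in AIH, 0.0926 to 0.182 in asymptomatic and 0.143 to 0.857 in control livers. The mean log2 ratio in AIH minus that in asymptomatic livers was -3.11 for Cr2, with p = 0.00794 in a two-sided exact permutation test, the smallest this design allows, and adjusted p = 0.0635 over the 8 ratios tested. That smallest p needs every AIH ratio below every asymptomatic ratio, which held with the pseudocount of 0.5 but not in the raw counts. In raw counts per Cd79b count, AIH 4 (0.266) lay above asymptomatic 1, 2 and 4 (0.25, 0.261 and 0.25). Against controls the difference in mean log2 ratio was -2.91 for Cr2 (adjusted p = 0.0794), -2.72 for Fcer2a and -2.30 for Ebf1 (both adjusted p = 0.0635, exact permutation test). Against asymptomatic livers it was -1.43 for Fcer2a and -1.06 for Ebf1 (both adjusted p = 0.106, exact permutation test). None of the 8 passed the threshold after adjustment with Cd79b as the base and a pseudocount of 0.5. With a pseudocount of 1, Cr2 against asymptomatic and Fcer2a and Ebf1 against control did (adjusted p = 0.0423 for each). In raw counts the groups overlapped for each of these, and a pseudocount raises such ratios most in low-count libraries. The other genes, Cd79a, Ms4a1, Pax5 and Blk, had ratios to Cd79b in AIH that overlapped those of both other groups, and their differences were not tested. Cd22 counts per Cd79b count ran from 0.517 to 1.49 in AIH, 0.944 to 2.88 in asymptomatic and 1.67 to 4.86 in control livers, so AIH lay below all controls here, also untested.

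**Figure D3:**
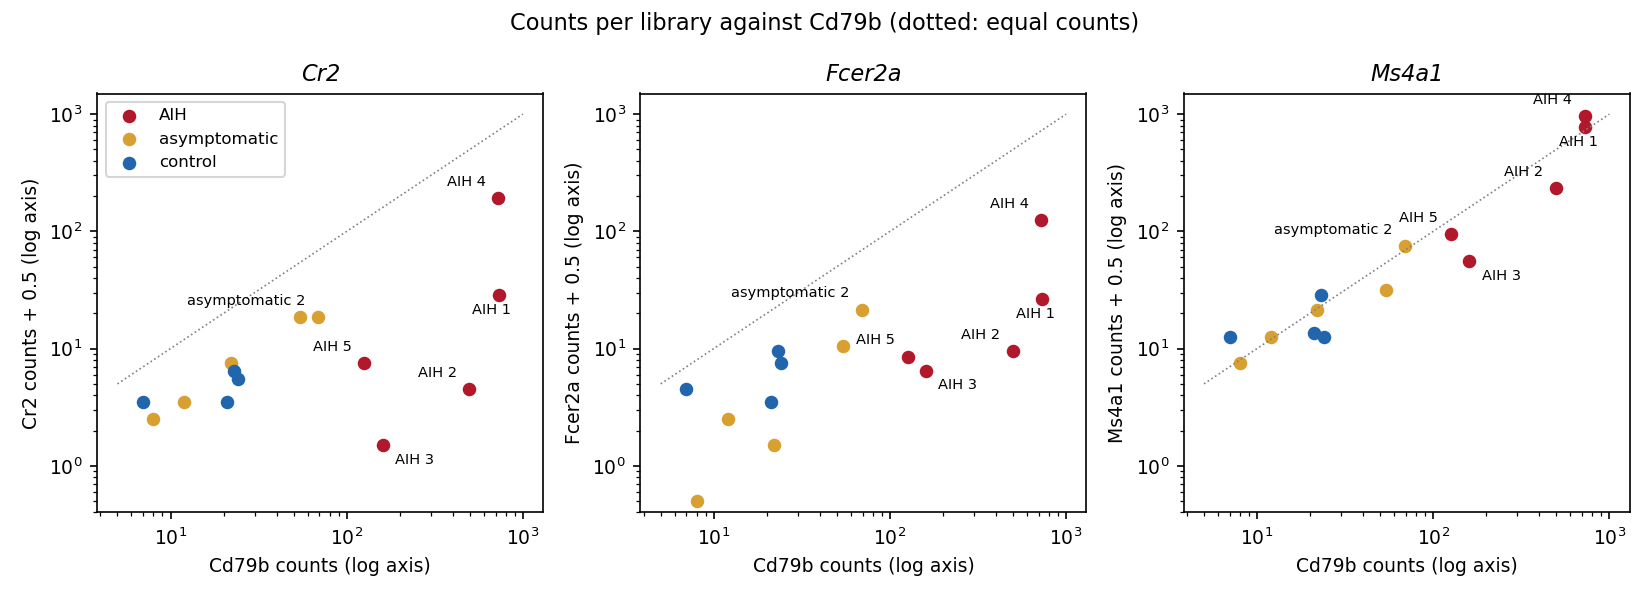
Counts of Cr2, Fcer2a and Ms4a1 (each plus 0.5, log axis) against counts of Cd79b (log axis) in the 14 livers, with the dotted line at equal counts. Ms4a1 lies near the line in all groups, at 0.344 to 1.71 counts per Cd79b count. Relative to Cd79b, Cr2 of AIH livers 1, 2, 3 and 5 lies below all other livers, and AIH 4 lies among those others. For Fcer2a, AIH 4 (0.172 counts per Cd79b count) lies above the other AIH livers, but the groups overlap. AIH 5 (0.0635) lies above asymptomatic 4 (0) and asymptomatic 5 (0.0455).

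Genes outside the 9 whose pattern over the 14 livers was nearest to that of Cd79b came from B cells and T cells alike. Likeness was measured as the root mean square difference of centred log2 CPM, among 14637 genes. The nearest was Trac, the constant chain of the T cell receptor alpha gene (0.48), then Cd2, an adhesion molecule of T cells (0.483), and H2-Ob, a regulator of antigen loading in B cells (0.501). Further near genes were Gpr18 (0.561), Siglecg, a relative of Cd22 (0.575), Tnfrsf13b, a receptor for B cell survival factors (0.59), and Cxcr5, which guides B cells to follicles (0.594). Among the members, Cd79a ranked 5th (0.555), Ms4a1 9th (0.593), Blk 26th and Cd22 29th, while Pax5 ranked 106th, Ebf1 457th, Fcer2a 718th and Cr2 1861st. Trac had 13.6, 7.53, 2.74, 15 and 1.36 CPM in AIH, 0.520, 1.18, 0.627, 0.129 and 0.266 CPM in asymptomatic and 0.117, 0.396, 0.708 and 0.559 CPM in control livers, again highest in AIH 1 and AIH 4.

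Much of the wider machinery of the receptor rose too. Of 15 further genes of receptor signalling, 10 rose in AIH against control, none fell and 5 were not called, with a median log2 fold change of 2.60. Syk, the kinase that docks on CD79A and CD79B, rose by 2.74 ± 0.21 (adjusted p = 7.03e-06, edgeR), Plcg2 by 2.67 ± 0.28 (adjusted p = 2.1e-05) and Prkcb by 2.75 ± 0.25 (adjusted p = 1.36e-05). These 3 also act in myeloid cells. AIH livers 1 to 5 were nearly even for Syk, at 72.2, 69.7, 63.5, 59.6 and 61.1 CPM, whereas Plcg2 ran from 13.7 to 27.2 CPM and Prkcb from 12.3 to 24.2 CPM among them. Among 10 further transcription factors of the lineage, 6 of 9 tested rose. The smallest p-values, not the largest rises, were those of Ikzf1 (2.83 ± 0.25, adjusted p = 1.34e-05), Bcl11a (4.20 ± 0.70, adjusted p = 0.000779) and Pou2f2 (2.74 ± 0.48, adjusted p = 0.00117), the last of which was not called within males (2.33, adjusted p = 0.188). Tcf3, Foxo1 and Bach2, also used outside the lineage, were at 0.39, 0.06 and 0.05 and were not called. Surface, survival and homing genes of mature B cells rose as a block, 13 of 13, with every AIH liver above every control liver in each and a median log2 fold change of 3.96. They included Cd37 (3.16 ± 0.32, adjusted p = 1.97e-05) and Cd83 (2.71 ± 0.36, adjusted p = 0.000143), both of which other leukocytes make as well.

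Genes of B cell precursors were mostly at or near 0 counts. Of 9 listed, 3 passed the filter and only Il7r, which T cells also make, rose (2.36 ± 0.51, adjusted p = 0.00468, edgeR, and 1.68, adjusted p = 0.094, within females), while Dntt (0.13 ± 0.44) and Cd93 (0.88 ± 0.38) were not called. Of the surrogate light chain and recombination genes, Vpreb1 had 10 counts in all AIH livers and 4 in all controls, and Igll1 had 2 in each. Rag1 had 8 counts, all in AIH 1, and Rag2 had 1 count, also in AIH 1.

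Few genes of the germinal centre, where activated B cells divide and mutate their antibody genes, passed the test. Of the 6 germinal centre genes tested, 2 rose in AIH against control, Gcsam (3.89 ± 0.61, adjusted p = 0.000456, edgeR) and Cd86 (2.02 ± 0.28, adjusted p = 0.000189), the second shared with dendritic cells and macrophages. Mybl1 was at 1.46 ± 0.53 (adjusted p = 0.0646) and was called by DESeq2 (adjusted p = 0.0299), by limma-voom (adjusted p = 0.0352), when scaled by library totals (adjusted p = 0.0426) and with only the 2 groups compared (adjusted p = 0.0472). Bcl6, the master factor of that state but also active in hepatocytes, was at -0.12 and not called. Rgs13, a signalling regulator of germinal centre B cells, had 29 counts in AIH 4 and 1 in AIH 1, with 1 count in all other livers, and did not pass the filter for testing.

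Antibody genes rose as well, with another ranking of livers. All 4 immunoglobulin constant genes listed rose in AIH against control. Ighm, the heavy chain of IgM, rose by 5.004 ± 1.37 (adjusted p = 0.0175, edgeR), Igkc by 5.24 ± 1.17 (adjusted p = 0.00545) and Iglc1 by 4.998 ± 1.11 (adjusted p = 0.00521), though near-identical light chain copies may share or lose reads. These 3 calls were lost within females, with Ighm at 4.46 (adjusted p = 0.117), Igkc at 4.46 (adjusted p = 0.0726) and Iglc1 at 4.79 (adjusted p = 0.0684), and within males, at 6.25 (adjusted p = 0.164) for Ighm, 6.67 (adjusted p = 0.0723) for Igkc and 5.62 (adjusted p = 0.146) for Iglc1. Ighm was also not called without control 2 (4.74, adjusted p = 0.0526) or without control 4 (4.77, adjusted p = 0.0536). Together the 4 summed to 1512, 364, 1345, 4294 and 140 CPM in AIH livers 1 to 5, so AIH 3, among the lowest for the 9 B cell genes, was close to AIH 1 here. Jchain, which joins IgM and IgA into polymers, had 4.65 counts per Cd79b count at the median of AIH livers, with a range of 1.69 to 18.6 whose top was AIH 3. The ratio was 0.87 to 8.46 in asymptomatic and 3.10 to 9.57 in control livers. The difference in mean log2 ratio was -0.15 between AIH and control (adjusted p = 0.873, exact permutation test) and 1.20 between AIH and asymptomatic livers (adjusted p = 0.236), neither past the threshold. Of 9 plasma cell genes tested, 4 rose in AIH against control, including Mzb1 (5.78 ± 1.06, adjusted p = 0.00142, edgeR), Irf4 (3.50 ± 0.63, adjusted p = 0.00132) and Prdm1 (2.07 ± 0.26, adjusted p = 9.07e-05). Sdc1, Xbp1 and Txndc5, which hepatocytes express, were at -0.02, 0.33 and -0.08 and were not called. Against asymptomatic livers 4 of the 9 rose and 1 fell, with a median log2 fold change of 0.31, and the summed level of the list overlapped, at 625.3 to 1235 CPM in AIH, 583.3 to 1315 CPM in asymptomatic and 562.1 to 655.7 CPM in control livers. Most of that sum in every liver was Sdc1, Xbp1 and Txndc5, so it is not a measure of plasma cell RNA.

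Of 6 listed signals that attract and sustain B cells, 4 were tested and 3 rose in AIH against control. Tnfsf13b, which encodes the survival factor BAFF, rose by 2.62 ± 0.44 (adjusted p = 0.000852, edgeR), and Ltb, which organises lymphoid tissue, by 3.38 ± 0.67 (adjusted p = 0.00254, and 2.62, adjusted p = 0.0563, within females). Cxcl13, the ligand of CXCR5, rose by 3.52 ± 0.71 (adjusted p = 0.00292), with 1260, 3316, 144, 755 and 587 counts in AIH livers 1 to 5, 28 to 89 counts in asymptomatic and 31 to 161 in control livers. Its highest liver was AIH 2, not AIH 1 or AIH 4, and AIH 3 overlapped control 2. Within males Cxcl13 was at 3.39 (adjusted p = 0.188). Cxcl12 was not called (-0.34 on the log2 scale).

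These changes stood within a broad gain of leukocyte RNA. In AIH against control 8 of 8 T cell genes rose, among them Cd3e by 3.06, Cd3g by 3.49 and Cd2 by 4.63 on the log2 scale. So did 6 of 6 macrophage and monocyte genes, with Lyz2 at 2.47, Adgre1 at 1.81 and Ccr2 at 3.08, and 5 of 5 proliferation genes, with Mki67 at 4.06, Top2a at 3.85 and Ccna2 at 3.91. All 6 granulocyte precursor genes rose as well, among them Mpo (adjusted p = 0.00022, edgeR), Ngp (adjusted p = 0.000302) and Ltf (adjusted p = 0.000173). Within males, where AIH 4 stands alone, Mpo was at 7.23 (adjusted p = 0.204), Ngp at 4.52 (adjusted p = 0.225) and Ltf at 3.94 (adjusted p = 0.198), and calls were likewise lost for Cd3g (3.78, adjusted p = 0.0784) and Adgre1 (1.49, adjusted p = 0.108). T cell genes summed to 80.2, 47.4, 17.7, 63.2 and 10.6 CPM in AIH livers 1 to 5, 2.47 to 4.65 CPM in asymptomatic and 2.05 to 6.59 CPM in control livers. The granulocyte precursor genes ranked the AIH livers otherwise. They summed to 134.9, 372.3, 597.2, 7.72 and 46.2 CPM in AIH livers, 0.471 to 2.86 CPM in asymptomatic and 0.49 to 0.994 CPM in control livers, and within AIH were lowest in AIH 4, the liver with the highest B cell gene sum. Macrophage and monocyte genes summed to 1017 to 2468 CPM in AIH, 379.8 to 485 CPM in asymptomatic and 300.9 to 623.9 CPM in control livers. Of 5 erythroid genes 3 rose, among them Ermap by 6.92 and Slc4a1 by 5.88 on the log2 scale, but within males Ermap was at 3.41 (adjusted p = 0.539) and Slc4a1 at -0.48, and with sex as a term Slc4a1 was not called (4.84, adjusted p = 0.0628). The 5 summed to 4.36 to 204.8 CPM in AIH, 2.46 to 6.90 CPM in asymptomatic and 4.81 to 6.65 CPM in control livers, and again AIH 4 was lowest of its group. Plasmacytoid dendritic cells also make Blk and B lineage factors such as Bcl11a. Of 7 genes of these cells 4 were tested and 2 rose, Bst2 and Ly6d, both made by other cells. Bst2 was not called without control 2 (0.85, adjusted p = 0.0532) or within males (0.60, adjusted p = 0.743), nor Ly6d within females (3.11, adjusted p = 0.114) or within males (2.82, adjusted p = 0.501). Siglech, more particular to plasmacytoid dendritic cells, was at 0.99 and not called, and Klk1 and Cox6a2 had at most 9 counts in any library. That list summed to 198.1 to 381.4 CPM in AIH, 126.1 to 168 CPM in asymptomatic and 99.4 to 137 CPM in control livers, nearly all of it Bst2. Of 5 hepatocyte genes, 1 fell in AIH against control, Cyp2e1 by 0.91 on the log2 scale (SE 0.16, adjusted p = 0.000934), and within males it was at -0.81 (adjusted p = 0.279). Their sums overlapped, at 80000 to 158200 CPM in AIH, 113200 to 140500 CPM in asymptomatic and 110900 to 149500 CPM in control livers. The part of these other cell types in the levels of the 9 genes was not tested.

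**Figure D4:**
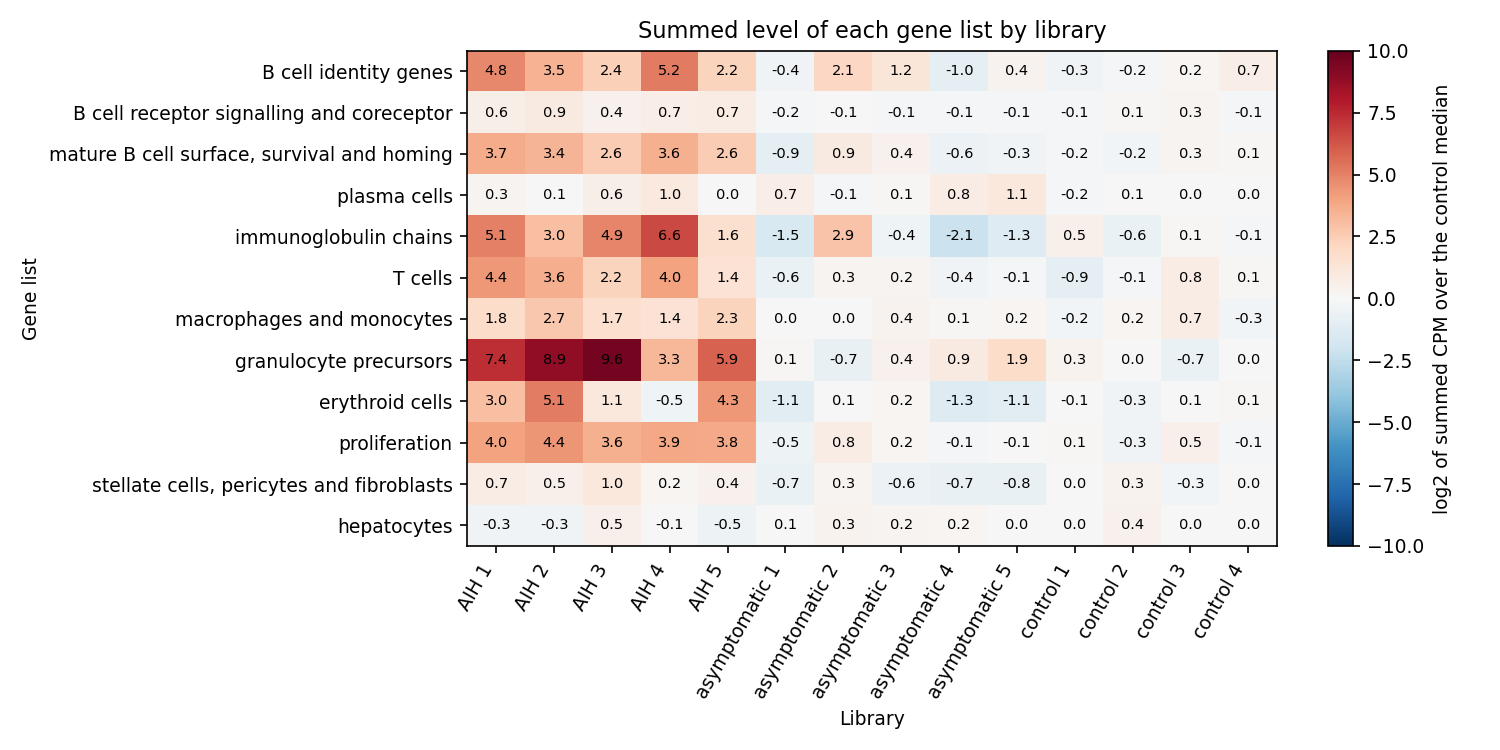
Summed CPM of each gene list in every liver as log2 over the median of the 4 controls, with AIH livers first, then asymptomatic and control livers. The row of the 9 B cell genes is highest in AIH 1 and AIH 4, as is the T cell row, whereas the granulocyte precursor and erythroid rows are lowest of the AIH group in AIH 4. The plasma cell row is mostly Sdc1, Xbp1 and Txndc5, which hepatocytes express.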

How the data were processed

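Total RNA of 14 mouse livers was sequenced, 1 library per mouse. The authors deposited unnormalized counts for each Ensembl gene ID. The submitters' processing notes list HISAT2 2.1.0 and HTSeq 0.9.0 among the tools and GRCm38 as mouse build. The annotation release and the strand setting are not given in the sources used here, so reads of a gene and of an antisense partner cannot be told apart. Antisense genes overlapping the 9 genes held at most 1 count each. The 5 summary rows of each file stayed out. They held 28.8% to 37.0% of reads that did not align uniquely and 3.23% to 9.27% that did not align. Symbols came from GENCODE M21 for 51719 IDs. Of 139 listed symbols 137 matched 1 ID.

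Counts were filtered (filterByExpr), scaled by TMM and tested with edgeR 4.0.16 (R 4.3.3, quasi-likelihood F-test, two-sided, 1 fit of 14 libraries, Benjamini-Hochberg over 14638 genes, threshold 0.05). Count ratios were compared with exact permutation tests over libraries, adjusted over 8 tests. The alternatives were DESeq2 1.42.0, limma 3.58.1 (voom with quality weights), other scalings and filters, only the 2 groups compared, a term for sex, and each library left out. Values within each sex (1 fit of sex by group over the 14 libraries) and a fit with the share of unaligned reads as a term were added after seeing the data. The 9 genes and the lists were chosen with earlier results of these data known. From each list the 3 genes with the smallest p in AIH against control are named, with any at or near 0 counts, and the 8 genes most like Cd79b; some of these are not reported here. Others named among the lists were chosen after their values were seen. Replicate numbers follow accession order. Counting intervals are exact, at 95%, and cover counting error only. The SE of a log2 fold change is its absolute value divided by the square root of the edgeR F statistic. Its 95% interval uses the normal distribution, and a t distribution would give a wider one with so few libraries.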

Additional observations from a re-analysis of the deposited data

Results flagged for a closer look

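Within a group of 4 or 5 libraries, a gene's highest or lowest library was looked for that lay far from the rest of its group. Of 198 combinations of gene or ratio and group examined, 23 had such a library. The cutoffs used give about 1 in 20 for independent values that follow a normal distribution. Low CPM and ratios are skewed and the genes share the same livers, so the 23 cannot be read against that rate. Among the 9 B cell genes there were 4. Cr2 (10.7 CPM) and Fcer2a (6.94 CPM) stood apart in AIH 4, as did the ratio of Cr2 to Cd79b counts (0.266). Ms4a1 stood apart in control 4 (1.56 CPM) and Cd79b, on the low side, in control 1 (0.409 CPM).

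In AIH 4 the same held for Ighm (2440 CPM) and Gcsam (3.64 CPM), and in the other AIH livers for Bst2 (344 CPM) and Lyz2 (855 CPM) in AIH 2 and Mpo (105 CPM) in AIH 3. Asymptomatic 2 stood above its group in Ighm (214 CPM), Igkc (109 CPM), Mzb1 (2.53 CPM), Cd83 (4.35 CPM), Ccr2 (3.29 CPM) and Lum (14.8 CPM), and apart in Ermap (0.353 CPM). Asymptomatic 4 stood apart in Cd86 (5.30 CPM). Among controls this was so for Gcsam (0.0585 CPM) and Tnfsf13b (0.76 CPM) in control 1, Ccr2 (1.41 CPM) and Mpo (0.0565 CPM) in control 2, and Ltb (1.58 CPM) in control 3. The control values of Gcsam and Mpo rest on 1 count each.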

How the results depend on the processing

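None of the 9 genes changed direction in either AIH comparison under any alternative that gave a value. With each library left out, the number called ran from 6 to 8 in AIH against control, 6 to 7 in AIH against asymptomatic and was 0 throughout in asymptomatic against control. Other settings gave 5 (within females, within males) to 9 (DESeq2) in AIH against control and 5 (unaligned share as a term) to 9 (sex as a term, within males) in AIH against asymptomatic. Within males the AIH side is 1 liver, AIH 4, assumed to vary like the other libraries, so those counts show no change in males. In asymptomatic against control, where none was called, signs turned with limma-voom for Cd79a (-0.063), Fcer2a (-1.44), Cd22 (-0.23) and Blk (-0.26), with sex as a term for Cr2 (-0.10), Fcer2a (-0.74) and Cd22 (-0.069), with the unaligned share as a term for Cr2 (-0.078) and Fcer2a (-0.11), and without asymptomatic 2 for Cd22 (-0.21), which ran to 0.37 with other libraries left out. The cause was not tested.

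Over all genes, asymptomatic against control had 109 calls with DESeq2 and 1299 with limma-voom, and 0 to 13 with each library left out, 13 being without asymptomatic 2. AIH against asymptomatic had 1372 with sex as a term, 562 with the unaligned share as a term and 812 within males. AIH against control had 1746 within females and 447 within males, where fewer libraries enter. Dntt, not called in AIH against control, was at -0.31 with sex and -0.23 with the unaligned share as a term, -0.021 within females, -0.97 within males, and -0.155 (without control 4) to 0.442 with each library left out, -0.008 without AIH 2. Within males Slc4a1 was at -0.48 and Ttr at 0.008.

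Ratios to Cd79b passed the threshold with a pseudocount of 1 for Ebf1 (-2.33) and Fcer2a (-2.74) against control and Cr2 against asymptomatic (-3.06). Their raw ratios overlapped between the groups compared. With Cd79a as the base, Ebf1 (-2.57), Fcer2a (-2.99) and Cr2 (-3.18) against control and Cr2 against asymptomatic (-3.30) passed. Leaving out each library, AIH against control, gave -2.72 to -1.85 for Ebf1, -3.16 to -2.37 for Fcer2a, -3.64 to -2.42 for Cr2 and -0.62 to 0.24 for Jchain, and Ebf1 and Fcer2a passed without control 2 (adjusted p = 0.0476, exact permutation test). No paired analysis was possible because the labels give no replicate numbers that pair mice. At the depth reached, Cd79a, Pax5, Cr2, Fcer2a, Blk and Ebf1 rest on fewer than 50 counts each summed over all controls, which limits their fold changes.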
